A study of Mus musculus with 8 samples.

Results

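The genes described here are the Hedgehog signalling genes Ptch1, Smo, Hhip, Boc, Cdon, Gli1, Gli2 and Gli3, together with Foxf1, a forkhead transcription factor gene that Hedgehog signals are known to switch on in the mesenchyme of developing organs. They were taken as a named list by gene symbol, matched through the Entrez identifiers, and all 9 were found among the 27179 genes of the count table. RNA was sequenced from 8 neurosphere cultures, floating clusters of proliferating neural stem and progenitor cells (NSPCs), each from a separate C57BL/6 fetus taken at E14.5. In 4 fetuses (Kat7 deleted, Kat7 lox/lox NesCre T/+) the histone acetyltransferase gene Kat7, also called Hbo1, was removed by a Nestin-driven Cre recombinase, which acts in neural precursors. The other 4 (Kat7 intact, Kat7 +/+ NesCre T/+) carried the same recombinase and unfloxed Kat7, so both genotypes express Cre.

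Hedgehog ligands bind the receptor PTCH1, aided by the co-receptors BOC, CDON and GAS1. Binding ends the block that PTCH1 places on SMO, a membrane protein that then acts in the primary cilium and leads to activation of the GLI transcription factors. Gli1, Ptch1 and Hhip are themselves targets of the pathway, and Gli1 is its common readout. In the embryonic brain, Hedgehog signals pattern the ventral forebrain and sustain precursor division.

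Library totals ran from 10687817 to 22444359 counts. Kat7 stood at 77.1 to 92.1 CPM (counts per 1000000, on library sizes scaled by TMM) in intact cultures. In deleted replicates 1 to 4 it stood at 31.4%, 0.437%, 16.5% and 0.104% of the intact mean, so the library labelled deleted replicate 1, and replicate 3 less so, kept reads of the targeted gene. Mitochondrial transcripts took up 18.95% to 23.5% of counts with Kat7 intact. With Kat7 deleted they took up 29.9%, 18.95%, 17.1% and 34.4%, by replicate number. No litter held both genotypes (3 litters each), so effects of litter and of genotype cannot be told apart. The littermate pairs were intact replicates 1 and 2, and deleted replicates 3 and 4. Over all genes tested by edgeR 7.9% were called and 26.2% had an unadjusted p under 0.05. Of 14 neural stem and progenitor markers 0 were called by edgeR and 1 had an unadjusted p under 0.05. Their summed level was 6351 to 7278 CPM in intact cultures and 7587, 4341, 7394 and 6486 CPM in deleted replicates 1 to 4. Of 10 microglia markers 8 stayed under 10 reads in every library, and Aif1, Csf1r and Ptprc were among them.

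Foxf1 rose in the Kat7 deleted cultures, from 0 to 2 reads per intact library to 19 to 38 reads per deleted library. Cdon, the most abundant of the co-receptor members, lay lower in all 4 deleted cultures, yet so unevenly that it missed the threshold. The other members had overlapping genotypes. Gene by gene, 8 of the 9 members had enough reads to be tested by edgeR's quasi-likelihood test, 4 libraries against 4, and Gli1 did not. The call threshold was 0.05 for the p adjusted by Benjamini-Hochberg over all 13498 genes tested, and it was passed by 1 member in the higher direction and 0 in the lower. Across the transcriptome 7.9% of genes were called, 5.1% higher and 2.8% lower. By unadjusted p 2 members were under 0.05, Foxf1 and Cdon, as were 26.2% of all genes tested. The same 2 were the members whose genotypes did not overlap, as did not those of 19.9% of all genes tested. Of the members DESeq2 called Foxf1 alone, and it gave no adjusted p for Hhip. Kat7 itself, uneven among the deleted cultures, missed the edgeR threshold (log2 fold change -3.02, adjusted p = 0.128). Foxf1 passed the filter on low counts through its deleted libraries alone, so that being tested and being higher are not separate facts for it. In these bulk RNA data, fewer cells of a type and less RNA per cell cannot be told apart.

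**Figure D1:**
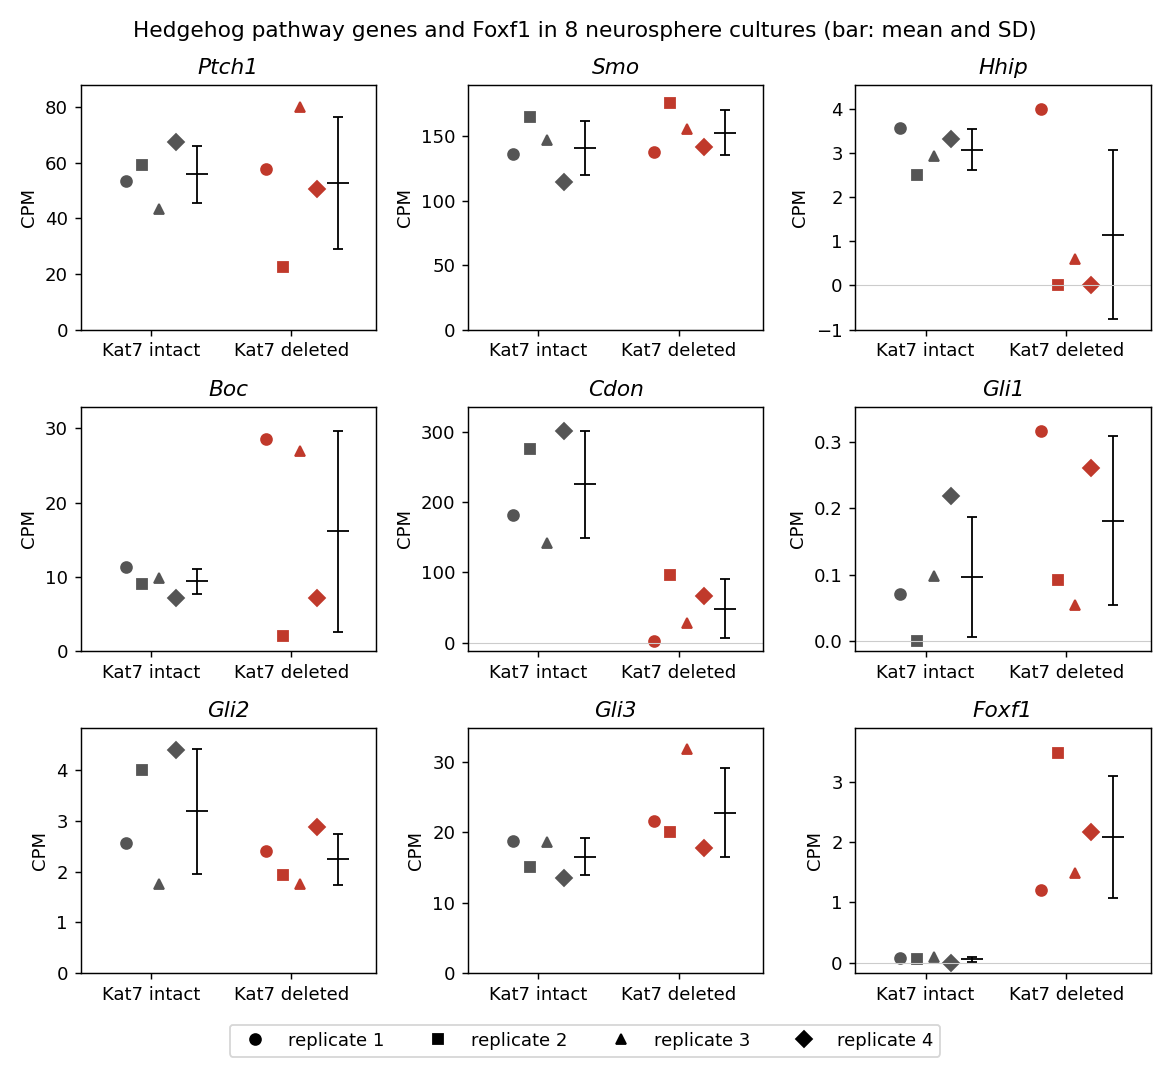
Level of each gene in every culture, in CPM on a linear axis with its own scale per panel. Points are cultures, with the symbol giving the replicate number, which does not pair cultures across genotypes, and the bar beside each group is its mean and SD (n = 4). Foxf1 and Cdon are the panels whose genotypes do not overlap, and Hhip and Boc spread widely among the deleted cultures.

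The ligands were close to absent. Shh, which encodes the ligand known from the ventral brain, had 2, 1, 2 and 10 reads in intact replicates 1 to 4 and 0, 1, 0 and 0 in deleted replicates 1 to 4. Ihh had 0 to 4 reads and Dhh 2 to 15 reads per library. None of the 3 ligand genes was tested. Over the summed reads, the deleted to intact ratio of Shh was 0.0877 (exact 95% interval 0.00208 to 0.57, which covers counting error only), and 10 of its 15 intact reads came from intact replicate 4. An exact two-sided permutation test of log2 CPM over cultures gave p = 0.0571 for Shh.

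Levels can be compared between genes per length, here as CPM per kilobase of the gene length in the count table. In intact cultures Smo had the highest mean, 35.4 ± 5.3 CPM per kilobase, followed by Cdon at 31.3 ± 10.5 (SD, n = 4), and their ranges overlapped. Ptch1 came next at 12.98 ± 2.38 and stood clear of its neighbours in the order. Boc at 2.12 ± 0.391 and Gli3 at 1.96 ± 0.311 overlapped, as did Gli2 at 0.475 ± 0.184 and Hhip at 0.339 ± 0.0506. Foxf1 at 0.0539 ± 0.0389 and Gli1 at 0.0264 ± 0.0248 CPM per kilobase closed the order, with ranges that overlapped near 0. In deleted cultures the corresponding means were 38.4 for Smo, 12.3 for Ptch1, 6.73 for Cdon, 3.65 for Boc, 2.71 for Gli3, 1.97 for Foxf1, 0.334 for Gli2, 0.127 for Hhip and 0.0495 for Gli1. The lengths bear on this order. The table gives Foxf1 a length of 1062 bases and Ptch1 4305, against 2415 and 14185 bases of annotated exons in GENCODE M21, and reads outside the counted exons are not in these values.

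Ptch1 (Entrez 19206, chromosome 13, 63508328 to 63573460, minus strand, GRCm38) encodes the ligand receptor and is a target of the pathway. Intact replicates 1 to 4 held 53.5, 59.2, 43.2 and 67.6 CPM. Deleted replicates 1 to 4 held 57.8, 22.7, 80.1 and 50.5 CPM. Deleted replicate 2 lay below every intact culture and deleted replicate 3 above every one. The log2 fold change of Ptch1 (deleted minus intact) was -0.08 ± 0.33 (standard error, edgeR adjusted p = 0.901). It turned to 0.17 without deleted replicate 2.

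Cdon (Entrez 57810, chromosome 9, 35421528 to 35507652, plus strand) encodes a cell-surface co-receptor. Intact replicates 1 to 4 held 182, 276, 142 and 302 CPM, a mean of 225 ± 75.7. Deleted replicates 1 to 4 held 2.54, 96.6, 28.3 and 66.8 CPM, a mean of 48.6 ± 41.5. Every deleted culture lay below every intact one, which 9.21% of all genes tested did. Against the intact mean, the deleted cultures kept 1.12%, 42.8%, 12.6% and 29.6% in replicate order. The fit gave a log2 fold change of -2.22 ± 0.82 and missed the threshold (edgeR adjusted p = 0.134). Without deleted replicate 1, the culture with the lowest level, the change was smaller (-1.82) and the call was made (adjusted p = 0.0388). By an exact two-sided permutation test of log2 CPM, p was 0.0286. No lower value is possible with 70 arrangements of 4 against 4, and the test takes littermates as independent. Of the 9 members, Cdon and Foxf1 reached that value, which is not adjusted for the 9 tests.

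Boc (Entrez 117606, chromosome 16, 44485045 to 44558870, minus strand) encodes the co-receptor most closely related to CDON. It stood at 11.4, 9.09, 9.88 and 7.24 CPM in intact cultures. Deleted replicates 1 and 3 held 28.5 and 26.9 CPM, above all intact cultures, while deleted replicates 2 and 4 held 2.11 and 7.13 CPM, below all of them. The mean therefore describes no deleted culture, and the log2 fold change of Boc was 0.79 ± 0.67 (edgeR adjusted p = 0.486). With replicates 1 and 3 left out it was -1.02 (adjusted p = 0.175). Gas1, a membrane-anchored co-receptor gene, stood at 304, 293, 234 and 167 CPM with Kat7 intact. The deleted replicates 1 to 4 held 81.0, 965, 390 and 347 CPM. Its log2 fold change was 0.84 ± 0.60 (adjusted p = 0.409), and 0.13 without deleted replicate 2. In deleted replicate 1, where Cdon and Gas1 were lowest, Boc was highest.

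Smo (Entrez 319757, chromosome 6, 29735497 to 29761366, plus strand) encodes the signal transducer that PTCH1 holds in check. It was among the steadiest members, at 137, 165, 147 and 115 CPM with Kat7 intact and 138, 176, 156 and 142 CPM with Kat7 deleted. The genotypes overlapped, with a log2 fold change of 0.12 ± 0.14 (edgeR adjusted p = 0.643), which turned to -0.015 with library totals in place of TMM scaling.

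Among 16 genes that act on SMO or in the cilium, all tested, 2 were called higher and 2 lower. Over all genes tested the shares called were 5.1% higher and 2.8% lower. Tulp3, which encodes a carrier of membrane receptors into the cilium, rose from 21.8 ± 2.96 to 44.4 ± 12.2 CPM, a log2 fold change of 1.03 ± 0.21 (edgeR adjusted p = 0.0245). Gpr161, a ciliary receptor that restrains the pathway, fell from 12.8 ± 0.899 to 8.55 ± 0.896 CPM (-0.58 ± 0.15, adjusted p = 0.0497). The arrestin gene Arrb2 fell from 28.6 ± 1.66 to 19.4 ± 1.71 CPM (-0.56 ± 0.11, adjusted p = 0.0261). In each of these 3 genes, named because they were called, the genotypes did not overlap, as in 19.9% of all genes tested. All 3 calls were lost whichever intact culture was left out, where genes called in all fell from 1066 to 261 or fewer. The adjusted p then reached 0.161 for Gpr161, 0.0936 for Tulp3 and 0.0897 for Arrb2. They were also lost without deleted replicate 3 for Gpr161 and Tulp3 and without deleted replicate 4 for Gpr161 and Arrb2, and with library totals for Tulp3 (0.0529). Fits that take account of shared litters ended all 3 calls too. With litter as a random block the adjusted p was 0.102 for Gpr161, 0.0664 for Arrb2 and 0.065 for Tulp3, and with littermates summed it was 0.19, 0.118 and 0.0751. Gpr161 and Arrb2 were also lost with the replicate number as a block (0.121 and 0.083), and Gpr161 without the filter on low counts (0.0967). The median log2 fold change of the 16 was 0.10, against 0.05 over all genes tested. Markers of ependymal cells, which carry motile cilia, were read as well. Their sum was 11.3 to 14.1 CPM in intact cultures and 20.2, 22.3, 36.2 and 36.5 CPM in deleted replicates 1 to 4. Foxj1, a regulator of motile cilia, made up most of that sum, at a mean of 10.5 CPM with Kat7 intact and 24.3 CPM with Kat7 deleted. Of the 5 markers 3 were tested, and Foxj1 alone was called, as higher (1.21 ± 0.23, edgeR adjusted p = 0.0214). Ccdc153 was not called (adjusted p = 0.0579) and Dynlrb2 was fitted slightly lower (-0.18, adjusted p = 0.779). Tmem212 and Rsph1 stayed under 10 reads in every library. The part of such cells in the ciliary genes was not tested.

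Gli1 (Entrez 14632, chromosome 10, 127329882 to 127341579, minus strand), the readout of active signalling, had 1, 0, 2 and 5 reads in intact replicates 1 to 4 and 5, 1, 1 and 3 reads in deleted replicates 1 to 4. At this depth 3 reads correspond to 0.131 to 0.275 CPM, and no library exceeded 0.317 CPM. The genotypes overlapped, and the ratio of summed reads, 10 against 8, was 1.64 with an exact 95% interval of 0.584 to 4.79. A difference of that size was not detectable at this depth. By a rule on likeness across the 8 libraries, the tested genes most like Gli1 in log2 CPM were Ccdc17, Cyb561d1, Kctd18, Hsd17b7 and Ttc14 (Pearson r from 0.991 to 0.926), an order that rests on single reads of Gli1.

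Gli2 (Entrez 14633, chromosome 1, 118834061 to 119054405, minus strand), the main activator among the GLI factors, had 36, 67, 36 and 101 reads in intact and 38, 21, 32 and 33 reads in deleted replicates. That was 2.57, 4.01, 1.76 and 4.41 CPM against 2.41, 1.93, 1.76 and 2.87 CPM. Deleted values lay within or just under the intact range (log2 fold change -0.51 ± 0.35, edgeR adjusted p = 0.388).

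Gli3 (Entrez 14634, chromosome 13, 15463723 to 15730026, plus strand), the main repressor when the pathway is idle and a regulator of the dorsal forebrain, stood at 18.8, 15.1, 18.6 and 13.5 CPM in intact cultures. Deleted replicates 1 to 4 held 21.6, 20.01, 31.9 and 17.7 CPM, so 3 of 4 lay above all intact cultures and replicate 4 lay among them. The log2 fold change was 0.47 ± 0.21 (edgeR adjusted p = 0.194, and from 0.0558 to 0.525 over 19 alternative settings). Sufu, which encodes the inhibitor that holds GLI proteins in the cytoplasm, had a like layout, with deleted replicate 2 in the intact range, at 4.01 to 5.27 CPM in intact cultures and 5.33, 4.87, 8.62 and 8.26 CPM in deleted replicates 1 to 4 (0.56 ± 0.26, adjusted p = 0.202).

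Of all genes tested 5.1% were called higher and 2.8% lower. Of 19 genes that regulate the GLI proteins, all tested, 0 were called higher and 1 was called lower. This was Csnk1e, a casein kinase gene, which fell from 105 ± 2.95 to 72.95 ± 4.56 CPM, a log2 fold change of -0.52 ± 0.10 (edgeR adjusted p = 0.0186). Its call was lost whichever intact culture was left out (adjusted p up to 0.0773). A block for replicate number (0.0772) and the summing of littermates (0.09025) ended it too. Their median was 0.13.

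**Figure D2:**
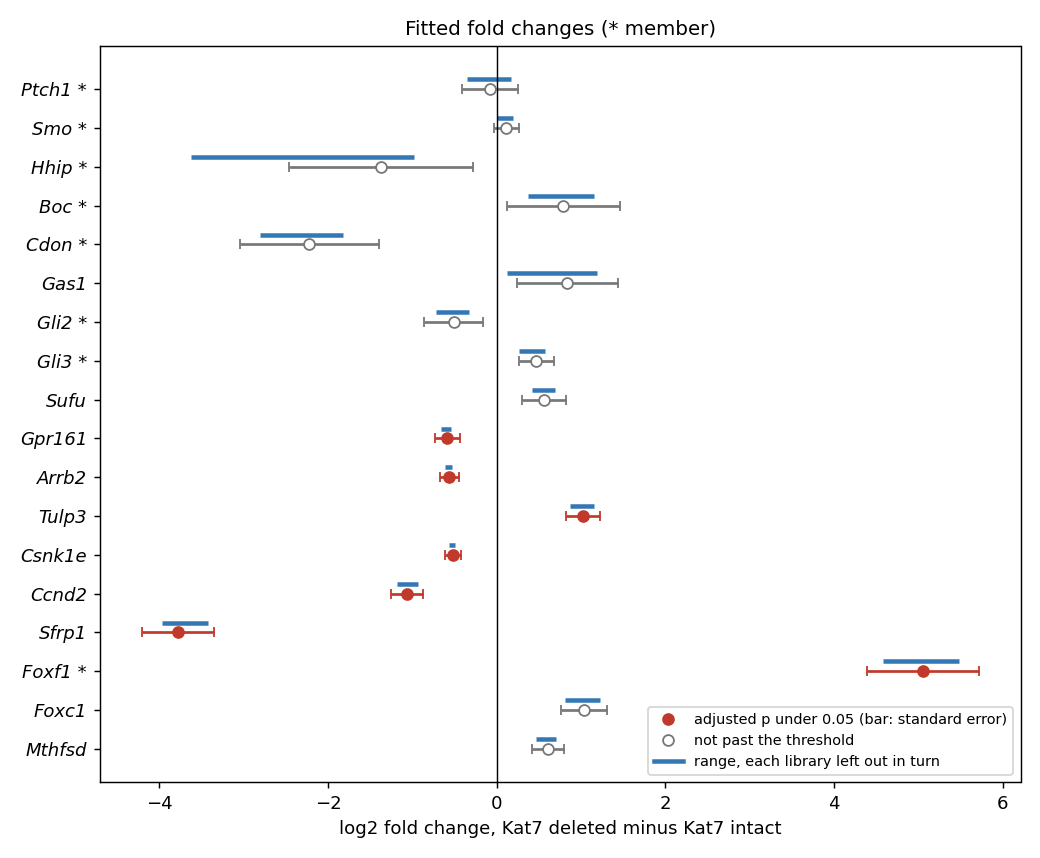
Fitted log2 fold changes, Kat7 deleted minus Kat7 intact, of the tested members (marked with an asterisk) and of other pathway or neighbouring genes named in the text. Points with horizontal bars are estimates and standard errors, filled red where the edgeR adjusted p was under 0.05, and blue lines give the range with each culture left out in turn. Foxf1 lies near 5 and Sfrp1 near -4, while the estimates of Hhip and Cdon have the widest errors.

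Hhip (Entrez 15245, chromosome 8, 79965850 to 80058060, minus strand) encodes a membrane protein that binds and sequesters the ligands, and is a target of the pathway. Because Hhip and Ptch1 are both known targets of GLI factors, the RefSeq start-site windows of both (GRCm38.p6, 250 bases before to 50 after the listed start, on the gene's strand) are shown. The listed start of Ptch1 lies 7725 bases inside the annotated gene span, which takes in longer transcripts, and is the start of 1 protein-coding GENCODE transcript, so the window stands for that start alone. Capitals mark the GLI core CCACCC, or GGGTGG on the other strand.
Ptch1, chr13:63565686-63565985, minus strand: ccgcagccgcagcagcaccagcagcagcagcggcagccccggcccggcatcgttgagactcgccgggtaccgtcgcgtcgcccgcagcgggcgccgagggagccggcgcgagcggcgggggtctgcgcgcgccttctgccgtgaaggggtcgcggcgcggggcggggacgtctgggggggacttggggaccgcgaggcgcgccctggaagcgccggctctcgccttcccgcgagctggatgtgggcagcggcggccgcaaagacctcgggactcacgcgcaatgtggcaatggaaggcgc
Hhip, chr8:80057959-80058258, minus strand: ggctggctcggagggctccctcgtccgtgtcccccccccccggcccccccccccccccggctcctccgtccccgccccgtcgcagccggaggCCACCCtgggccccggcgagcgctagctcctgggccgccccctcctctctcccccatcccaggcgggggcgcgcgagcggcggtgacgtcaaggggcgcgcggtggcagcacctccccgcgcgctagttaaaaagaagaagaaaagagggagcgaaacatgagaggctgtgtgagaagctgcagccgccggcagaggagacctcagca
The Hhip window held the core once, starting 158 bases before the start, and the Ptch1 window did not hold it. Neither window held the known 9-base GLI consensus GACCACCCA or its reverse complement TGGGTGGTC, which contain the core and its complement. Of 32851 windows of the same length, 0.253% held the consensus and 31.5% held the core. Of the 9 members 6 had a window in this table (Gli2, Gli3, Ptch1, Smo, Hhip and Cdon). The listed start of Cdon lies 30548 bases inside its annotated span, so its window may not stand for the gene's main start. The core occurred 2 times in the Gli2 window, 1 time each in those of Gli3 and Smo, and 0 times in that of Cdon.

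Hhip had 50, 42, 60 and 76 reads in intact replicates 1 to 4, or 3.56, 2.51, 2.94 and 3.32 CPM. Deleted replicate 1 held 63 reads (3.99 CPM), above every intact culture. Deleted replicate 3 held 11 reads (0.604 CPM), and deleted replicates 2 and 4 held 0 reads each, where 3 reads would be 0.275 and 0.261 CPM. The fitted log2 fold change was -1.37 ± 1.09 (edgeR adjusted p = 0.458). Without deleted replicate 1 Hhip was called lower (-3.63, adjusted p = 0.0314). As in Boc and Cdon, the deleted cultures of Hhip differed more among themselves than the intact cultures did, and of the 8 tested members 6 had the larger SD of log2 CPM in the deleted genotype, against 86.6% of all genes tested.

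**Figure D3:**
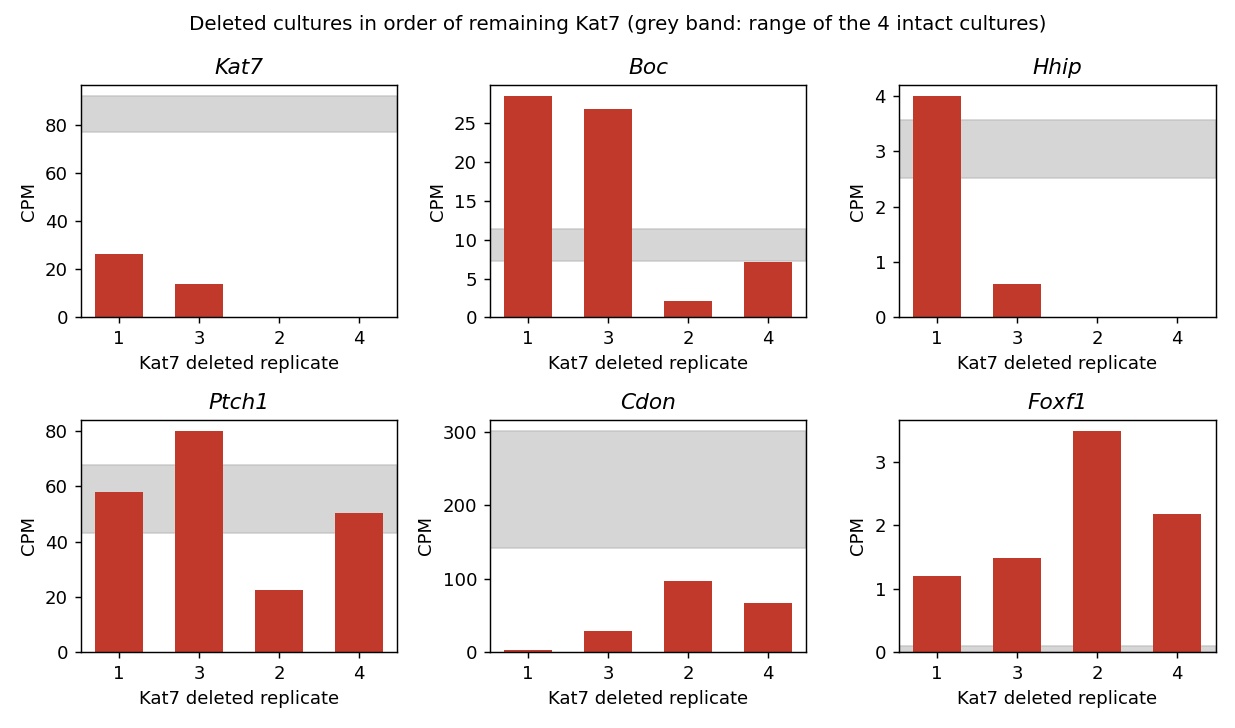
Level of Kat7 and of 5 members in the deleted cultures, as bars in CPM from 0, with the replicates ordered from the most remaining Kat7 (replicate 1) to the least (replicate 4). The grey band spans the 4 intact cultures. Boc, Hhip and Ptch1 are higher in replicates 1 and 3 than in replicates 2 and 4, and Cdon and Foxf1 are lower there.

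Deleted replicates 1 and 3, the cultures that kept Kat7 reads, both lay above replicates 2 and 4 in Gli3, Ptch1, Hhip and Boc and both below them in Cdon and Foxf1. That is 6 of the 8 tested members, and 35.7% of all genes tested were ordered in either of these ways. Within 1 litter, deleted replicates 3 and 4 were littermates, with Kat7 at 13.9 and 0.087 CPM. Between them Boc stood at 26.9 and 7.13 CPM, Cdon at 28.3 and 66.8 and Foxf1 at 1.48 and 2.17. The Foxf1 values rest on 27 and 25 reads (Poisson 95% intervals 17.8 to 39.3 and 16.2 to 36.9 reads, before scaling for depth). Astrocyte markers also differed among the deleted cultures, in another order, with a summed level of 2197, 241, 567 and 593 CPM in replicates 1 to 4. Intact cultures held 139 to 264 CPM, and 4 of the 9 tested of 10 astrocyte markers were called higher, beside 5.1% of all genes tested. Their part in these differences was not tested.

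Other direct targets of the pathway known from neural cells gave 2 lower calls and 0 higher among 10 tested of 15. The shares over all genes tested were 2.8% lower and 5.1% higher. Sfrp1, a secreted Wnt inhibitor gene, fell from 54, 149, 65 and 124 reads in intact replicates to 6, 3, 9 and 4 in deleted ones. That was 5.34 ± 2.56 against 0.374 ± 0.0911 CPM (log2 fold change -3.78 ± 0.43, edgeR adjusted p = 0.00485), and Sfrp1 was called in all 19 alternative settings. Sfrp1 passed the filter on low counts through its intact libraries alone, so that being tested and being lower are not separate facts for it. The cyclin gene Ccnd2 fell from 601 ± 67.7 to 288 ± 67.6 CPM (-1.06 ± 0.19, adjusted p = 0.0179). Its call was lost without intact replicate 2, 3 or 4 (adjusted p up to 0.0681) and with littermates summed (0.0655). Of the 5 untested targets, Nkx2-9, Foxa2 and Foxd1 had at most 2 reads in any library, Nkx6-1 had 0 in all 8 and Mycn at most 12. The median log2 fold change of the 10 was -0.48. Markers of neurons and of the oligodendrocyte lineage gave lower calls too, Elavl3, Elavl4 and Neurod1 among 8 tested of 10, and Gpr17 and Ugt8a among 6 tested of 10. Neither list gave a higher call, but 2 of the 8 and 2 of the 6 were fitted higher. Those neuron markers were Snap25 (2.10, edgeR adjusted p = 0.239) and Dcx (4.70, adjusted p = 0.178). Of the 1179 Dcx reads 1096 came from 1 library. Map2, at a mean of 1030 CPM with Kat7 intact and 925 CPM with Kat7 deleted, made up most of the neuron sum. Neuron markers summed to 1048 to 1094 CPM in intact cultures and to 889, 1226, 961 and 792 CPM in deleted replicates 1 to 4, and oligodendrocyte lineage markers to 112 to 181 CPM and to 141, 116, 145 and 107 CPM. Their part in the lower targets was not tested. Over the 65 pathway genes beyond the members, 50 were tested, with 2 called higher and 5 lower and a median of 0.08. Those 7 are 14% of the 50, beside 7.9% of all genes tested. With any 1 culture left out the count was 1 to 10, falling to 1 or 2 whichever intact culture was left out. Genes called in all fell too in these fits, from 1066 to 250, 192, 261 and 189 without intact replicates 1 to 4.

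Foxf1 (Entrez 15227, chromosome 8, 121084386 to 121088154, plus strand) had 1, 1, 2 and 0 reads in intact replicates 1 to 4 and 19, 38, 27 and 25 reads in deleted replicates 1 to 4. In CPM the intact cultures held 0.0713, 0.0598, 0.0978 and 0, and the deleted ones 1.21, 3.49, 1.48 and 2.17. All 4 deleted cultures lay above all 4 intact ones, which 10.7% of all genes tested did. The fitted log2 fold change was 5.06 ± 0.66 (edgeR adjusted p = 0.00711), a fit against 4 intact reads in all. The ratio of summed reads, 109 against 4, was 35.8 with an exact 95% interval of 13.6 to 134 that covers counting error only. The call held in all 19 alternative settings, with log2 fold changes from 4.26 to 5.51 and adjusted p from 1.04e-06 to 0.0467. Without the pair of deleted cultures of highest mitochondrial share it was 5.29. Even so the level stayed low, at a mean of 2.09 ± 1.02 CPM in deleted cultures.

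Foxf1 lies in a cluster of forkhead genes. The long non-coding RNA gene Fendrr starts 1276 bases upstream on the opposite strand, with no overlap of the annotated spans. Fendrr had 0, 0, 2 and 0 reads in intact and 4, 3, 6 and 7 reads in deleted replicates 1 to 4, too few to be tested by edgeR. Every deleted culture was above every intact one in CPM, and the ratio of summed reads, 20 against 2, was 13.2 (exact 95% interval 3.19 to 116). The window at the Fendrr start, which faces the start of Foxf1, is shown with the GLI core in capitals as above.
Fendrr, chr8:121083061-121083360, minus strand: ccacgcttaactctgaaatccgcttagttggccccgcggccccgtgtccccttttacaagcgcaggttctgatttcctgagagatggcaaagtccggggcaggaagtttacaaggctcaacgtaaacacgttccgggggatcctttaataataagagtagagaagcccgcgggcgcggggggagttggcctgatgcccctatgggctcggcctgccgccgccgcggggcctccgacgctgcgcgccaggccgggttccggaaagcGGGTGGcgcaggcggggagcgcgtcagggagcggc
It held the core once, on the opposite strand, beginning at base 16 of the transcript, and 31 CG dinucleotides, against a median of 7 over all windows.

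On the other side of Foxf1, Foxc2 had 0, 0, 0 and 2 reads in intact and 1, 4, 5 and 4 reads in deleted replicates, a ratio of 9.2 over summed reads (exact 95% interval 2.11 to 83.4), with intact replicate 4 above deleted replicate 1 in CPM. Foxl1 had at most 1 read per library. Mthfsd, a gene of a folate enzyme domain protein that lies between Foxf1 and Foxc2, stood at 12.05, 10.4, 11.4 and 15.1 CPM with Kat7 intact and at 18.01, 17.9, 14.99 and 24.1 CPM with Kat7 deleted, an overlap at deleted replicate 3 (log2 fold change 0.61 ± 0.19, edgeR adjusted p = 0.0814). Within 500 kb on each side of Foxf1 there were 13 other genes, of which 6 were tested, with 0 called higher and 0 lower by edgeR. Over all genes tested 7.9% were called, so 0 of 6 is too small a count to tell this window from the rest. Mthfsd had the lowest adjusted p of the 6, and their median log2 fold change was -0.00123. Of related forkhead genes elsewhere, Foxf2 had at most 1 read and Foxq1 at most 2 reads per library, while Foxc1, a regulator of mesenchyme and meninges, stood at 29.3 ± 5.93 and 60.2 ± 21.9 CPM (1.04 ± 0.28, adjusted p = 0.0545).

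**Figure D4:**
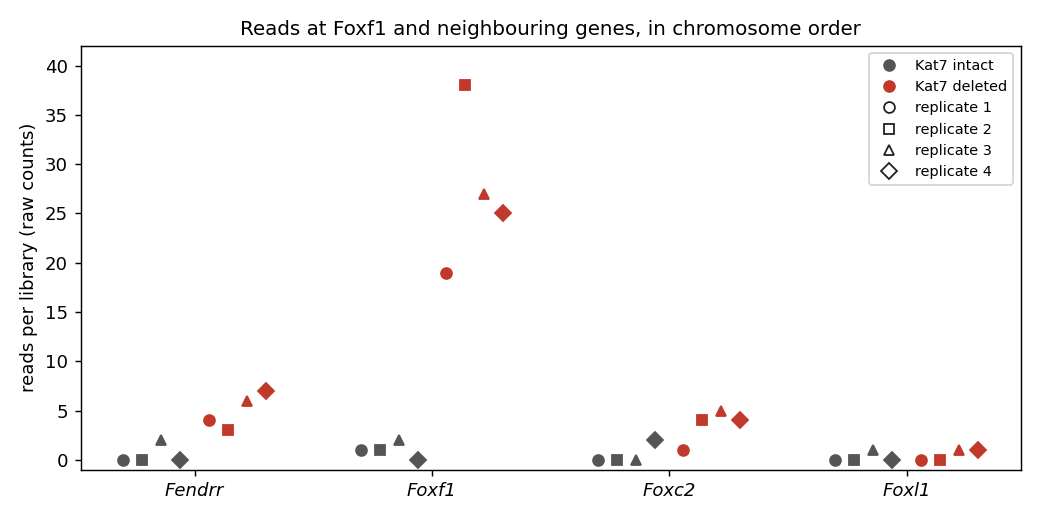
Raw reads per library at Fendrr, Foxf1, Foxc2 and Foxl1, in their order along the chromosome, with Mthfsd, which lies between Foxf1 and Foxc2, left out for its higher counts. Points are cultures, grey for intact and red for deleted. Foxf1 has 19 to 38 reads in deleted cultures and at most 2 in intact ones, and Fendrr has 3 to 7 against at most 2.

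Since Foxf1 is known from mesenchyme and pericytes, 15 markers of those cells were read beside it. Their summed level was 6.13 to 10.1 CPM in intact cultures and 10.8, 614, 12.4 and 112 CPM in deleted replicates 1 to 4. Acta2, Col3a1 and Dcn, singled out after their values were seen, made up most of the sums of deleted replicates 2 and 4. The actin gene Acta2 held 1.90, 191, 6.92 and 107 CPM in deleted replicates. The collagen gene Col3a1 held 334 CPM and the matrix gene Dcn 84.1 CPM in deleted replicate 2, and both were at or under 0.22 CPM in the other 3 deleted cultures. The other 12 markers summed to 5.06 to 9.29 CPM with Kat7 intact and to 8.81, 5.23, 5.27 and 5.30 CPM with Kat7 deleted. That sum hides opposite directions. Tbx18, its largest part with Kat7 intact, had means of 4.39 and 1.10 CPM (edgeR adjusted p = 0.211). Deleted means were higher for Tagln (0.628 to 1.30 CPM), Myh11 (0.231 to 0.815), Col1a1 (0.188 to 0.621), Twist1, Col1a2, Pdgfrb and Rgs5. They were lower for Des, Lum, Kcnj8 and Abcc9. The pericyte genes Pdgfrb, Rgs5, Kcnj8 and Abcc9 stayed under 10 reads in every library. Of the 4 tested markers 3 were fitted higher and 1 lower, and 1 was called, Acta2, as higher, beside 5.1% of all genes tested. That call was lost in 10 of the 19 alternative settings. These were any 1 intact culture or deleted replicate 4 left out (adjusted p up to 0.11), litter as a random block (0.435), littermates summed (0.0948), the replicate number as a block (0.0826), sample weights (0.0697) and no filter on low counts (0.0964). Without deleted replicate 2, the culture with most of these transcripts, the log2 fold change of Foxf1 was 4.71 (adjusted p = 0.00705).

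By the same rule on likeness, the tested genes whose log2 CPM was most like that of Foxf1 over the 8 libraries were Spsb2, Uqcc3, Sema4b, Napa and Ly96, with Pearson r from 0.992 to 0.988. All 5 were lowest in intact cultures and highest in deleted replicate 2. Sema4b, a semaphorin gene, stood at 29.2, 33.3, 38.1 and 25.7 CPM with Kat7 intact and at 103, 151, 91.04 and 106 CPM with Kat7 deleted. These genes are given as a description, since any gene that separates the genotypes with its peak in deleted replicate 2 scores high over 8 libraries of shared origin.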

How the data were processed

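Raw counts of reads per Entrez gene, with a gene length, were deposited by the authors for 8 libraries of polyadenylated RNA, with no normalization (per the file headers and values). Per the submitters' processing notes, CASAVA 1.8.2 and featureCounts were used with mouse build mm10. Per the labels, reads were single-end and 100 bases long. The aligner and the strand setting are not given in the sources used here. The count table and the 8 single-library files held the same counts. Symbols and coordinates came from the RefSeq gene table of GRCm38.p6, in which 25275 of 27179 identifiers matched. Promoter windows are RefSeq's. Annotated exon lengths are from GENCODE M21.

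The count model was edgeR 4.0.16 (R 4.3.3): filterByExpr at a minimum count of 10, TMM scaling, robust dispersions and a quasi-likelihood test between genotypes without covariates. Adjusted p-values are Benjamini-Hochberg over the 13498 genes tested. Standard errors divide the size of the log2 fold change by the root of F. The prior count of log2 CPM was 2. CPM values of all genes use the TMM-scaled sizes. SDs are over 4 libraries. Poisson-based ratios of summed reads use exact conditional 95% intervals, cover counting error only, and assume reads to be independent molecules, as no molecular identifiers are named. The procedure was tested on simulated counts.

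The members and gene lists, the pathway, marker and forkhead lists included, were chosen with earlier results of these data known. Named were all members, every called gene of the pathway and forkhead lists, the ligands, Sufu, Gas1, the forkhead list and, for Gli1 and Foxf1, the 5 tested genes of highest correlation. A few genes that this rule names are not reported here, though list counts include them. The last step passed over gene models without a name and sex-linked genes. Alternatives were DESeq2 1.42.0, limma 3.58.1 voom fits, other scalings and filters, blocks, summed littermates and each library left out. The fits treat the 8 fetuses as independent.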

Additional observations from a re-analysis of the deposited data

Results flagged for a closer look

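In 57 groups of 4 libraries, each 1 gene in 1 genotype, 5 had a library that stood apart from the other 3 in log2 CPM by Dixon's criterion, where chance alone flags about 1 group in 20. All 5 were genes with a few reads in 1 library and 0 in the others. Shh reached 0.0918 CPM in deleted replicate 2, from 1 read. Fendrr reached 0.0978 CPM in intact replicate 3, from 2 reads. Foxl1 reached 0.0489 CPM in intact replicate 3, from 1 read. Foxc2 reached 0.0872 CPM in intact replicate 4, from 2 reads. Foxq1 reached 0.0549 CPM in deleted replicate 3, from 1 read. None of the 9 members had such a library.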

How the results depend on the processing

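The rise of Foxf1 and the fall of Sfrp1 were called in all 19 alternative settings. The number of genes called was 1066 (688 higher, 378 lower). It was 2200 by DESeq2, 673 with library totals (309 higher, 364 lower, where the all-gene median moved from 0.05 to -0.09 in log2), 414 by voom with litter as a random block, 193 with littermates summed, 2283 by voom with sample weights, 2299 without the deleted cultures that kept Kat7 reads, and 189 to 2182 with any 1 culture left out. The members called numbered 1, and 3 with sample weights, 3 without the cultures with Kat7 reads, 2 without the pair of highest mitochondrial share (an alternative added after seeing the data) and 1 to 3 with any 1 culture left out. The other pathway genes called numbered 7, and 3 with litter as a random block, 1 with littermates summed, 11 with sample weights, 12 without the cultures with Kat7 reads and 1 to 10 with any 1 culture left out. The added members were Hhip and Cdon, called lower. Hhip was then fitted at -8.64 against 2 cultures at 0 reads, a value that is no bound. Directions reversed for Smo (-0.015 with library totals), Ptch1 (0.18 with sample weights, 0.17 without deleted replicate 2, within -0.35 to 0.17 with any 1 culture left out) and Boc (-1.02 without the cultures with Kat7 reads). The cause of these changes was not tested.

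Replicate numbers are only names here: deviations from the genotype means correlated at 0.0961, 0.221, 0.11 and 0.331 between the same-numbered cultures, and 4 of 8 cultures correlated best with their own number. With the replicate number as a block, 319 genes, 1 member (Foxf1) and 3 other pathway genes were called. Depth limits what can be said of Gli1, the ligands and Fendrr, at 0 to 15 reads a library.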
